A study of Danio rerio with 20 samples.

Results

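The glucocorticoid receptor and a set of its classic targets were examined as 8 genes among the 32105 genes of a skin RNA-seq count table from male zebrafish (Danio rerio). The members were chosen by name: the receptors nr3c1 and nr3c2, the targets fkbp5, tsc22d3, klf9, zbtb16a and zbtb16b, and hsd11b2, which encodes a cortisol-inactivating enzyme. All 8 were found in the table, zbtb16a under the symbol ZBTB16 in the name table used, and all 8 passed the filter on low counts. The fish were of strain AB JxTu and formed 4 groups of 5 libraries each: 3-year fish exercised in a swim tunnel, 3-year fish without perturbation, 1-year fish exercised in a swim tunnel, and 1-year fish without perturbation. A swim tunnel holds fish in a flow of water that they swim against. Neither the length of the swim nor the hour of sampling is given in the sources used here. No source says whether animals were pooled, and p-values measure the spread between the samples of a group.

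Cortisol, the main glucocorticoid of fish as of humans, is released by the interrenal gland on stress. It enters cells and binds the glucocorticoid receptor, a transcription factor that chaperones hold in the cytoplasm until the hormone arrives. The bound receptor moves to the nucleus, raises one set of genes by binding DNA and lowers another, largely inflammatory, set. In skin, glucocorticoids are known for dampening inflammation and for acting on keratinocytes.

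Libraries of 3-year fish held 29280697 to 42117170 counts with exercise and 36616292 to 50756160 without it. Libraries of 1-year fish held 29633656 to 52437698 counts with exercise and 31272180 to 43187976 without it. Levels are in CPM, each count divided by the TMM-scaled size of its library, and a gene is called at a Benjamini-Hochberg adjusted p below 0.05 over the 20788 genes tested. Counts of genes at an unadjusted p below 0.05 are not calls. The share of all genes at that threshold is not given, so these counts have no background here. The 8 skin markers, keratins, collagens and epithelial genes, were detected in all groups and summed to 55884 to 80661 CPM in exercised 3-year libraries, 58684 to 77053 CPM in unexercised 3-year libraries, 79784 to 108105 CPM in exercised 1-year libraries and 67106 to 86655 CPM in unexercised 1-year libraries. One library stood apart by name, since the column of unexercised 1-year replicate 1 is headed muscle while its label says skin; its fast skeletal muscle markers summed to 4308 CPM, within the 2275 to 6166 CPM of its group. Leaving that library out changed the count of called members in none of the 7 comparisons. Hepatocyte markers summed to 1443, 2399 and 4848 CPM in exercised 1-year replicates 1, 2 and 3, against 297 and 429 CPM in replicates 4 and 5 of that group. They summed to 166 to 712 CPM in exercised 3-year libraries, 215 to 1565 CPM in unexercised 3-year libraries and 142 to 317 CPM in unexercised 1-year libraries. The highest of the unexercised 3-year libraries was replicate 4, and without it the count of called members was the same in all 7 comparisons. Called results that involve exercised 1-year fish are also given without replicates 1, 2 and 3 of that group, the 3 libraries meant below by high in hepatocyte markers. This leaves 2 libraries in the group. A call lost that way cannot be told apart from the loss of precision with fewer libraries. Shares of all genes are those of the main edgeR fit unless DESeq2 or limma voom is named. No share is given for the other fits, so their counts cannot be read against one. In bulk tissue, fewer cells of a type and less RNA per cell cannot be told apart.

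The glucocorticoid receptor transcript was lower in exercised than in unexercised fish at 1 year, and the zbtb16a transcript was higher. At 3 years the main fit called neither, at log2 -0.57 for nr3c1 and 1.45 for zbtb16a, the same directions as at 1 year. It called the gap between the exercise effects at the 2 ages for neither gene. Averaged over ages, both exercise effects were called. In exercised fish nr3c1 was higher at 3 years than at 1 year, while zbtb16a and tsc22d3 were lower at 3 years. None of these age differences was called without the 3 libraries high in hepatocyte markers. Those of nr3c1 and zbtb16a were also not called with the compared groups fitted alone. The receptor's textbook target fkbp5 passed the test in none of the comparisons, and differed up to 10.4-fold between libraries of 1 group.

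nr3c1 (ENSDARG00000025032) encodes the glucocorticoid receptor itself. It had 129, 125, 116, 88.1 and 92.3 CPM in exercised 3-year libraries and 161, 154, 157, 182 and 164 CPM in unexercised 3-year libraries. It had 75.6, 33.3, 68.8, 29.3 and 78.3 CPM in exercised 1-year libraries and 117, 108, 145, 145 and 114 CPM in unexercised 1-year libraries. Every unexercised 3-year library stood above every other library, every exercised 1-year library stood below every other, and the other 2 groups overlapped. The group means were 110.0 ± 18.7 CPM in exercised 3-year fish, 163.6 ± 11.03 in unexercised 3-year fish, 57.1 ± 23.8 in exercised 1-year fish and 125.8 ± 17.9 in unexercised 1-year fish (SD, n = 5 each). At 1 year exercised fish were lower (log2 -1.14, SE 0.22, adjusted p = 0.00294). At 3 years the fold change was -0.57 on the log2 scale (SE 0.22, unadjusted p = 0.0186, adjusted p = 0.17), which was not called although the ranges did not overlap. Between ages, exercised 3-year fish stood 1.93-fold above exercised 1-year fish (log2 0.95, SE 0.22, adjusted p = 0.00982). Unexercised 3-year and 1-year fish also had separate ranges, at 0.38 on the log2 scale (SE 0.22, adjusted p = 0.386), which was not called. The exercise effect at 3 years minus that at 1 year was 0.57 on the log2 scale, with an interval from -0.10 to 1.23 and an adjusted p of 0.449. The fall with exercise at 1 year was called with each of the 20 libraries left out in turn, and stood at -1.23 (adjusted p = 0.0201) without the 3 libraries high in hepatocyte markers. The age difference in exercised fish stood at 1.03 (adjusted p = 0.0596) without those 3 libraries and at 0.94 (adjusted p = 0.0592) with the compared groups fitted alone. It was called in the other 27 alternative fits, among them that with a hepatocyte score as covariate.

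nr3c2 (ENSDARG00000102082) encodes the mineralocorticoid receptor, which in mammals binds cortisol as tightly as aldosterone. Its levels were low: 7.15, 7.37, 4.50, 3.98 and 4.87 CPM in exercised 3-year libraries, 8.82, 4.68, 4.51, 4.62 and 5.66 CPM in unexercised 3-year libraries, 6.84, 3.47, 2.73, 2.18 and 2.53 CPM in exercised 1-year libraries and 4.71, 4.91, 5.11, 3.75 and 5.05 CPM in unexercised 1-year libraries. The 4 groups overlapped throughout. Its log2 fold change with exercise was -0.40 (SE 0.28, adjusted p = 0.357) at 1 year and -0.02 (SE 0.28, adjusted p = 0.975) at 3 years. Exercised 1-year replicate 1, at 6.84 CPM, was the highest of its group, the other 4 lying between 2.18 and 3.47 CPM. Without it nr3c2 was called lower with exercise at 1 year (log2 -0.80, adjusted p = 0.0333), and higher in exercised 3-year than in exercised 1-year fish (log2 1.03, adjusted p = 0.0117).

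Per kilobase of gene length, the glucocorticoid receptor transcript exceeded the mineralocorticoid receptor transcript in all 4 groups. The ratio of nr3c1 to nr3c2 was 13.4 ± 2.38 in exercised 3-year fish and 20.4 ± 5.28 in unexercised 3-year fish (SD, n = 5 each). It was 11.9 ± 6.26 in exercised 1-year fish and 18.0 ± 4.53 in unexercised 1-year fish (SD, n = 5 each). Over all libraries nr3c1 averaged 21.3 CPM per kilobase and nr3c2 1.38 CPM per kilobase. The targets covered a wider span on the same scale, at 342 CPM per kilobase for fkbp5, 151 for tsc22d3, 53.4 for klf9, 34.7 for zbtb16a, 20.2 for hsd11b2 and 11.9 for zbtb16b.

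**Figure D1:**
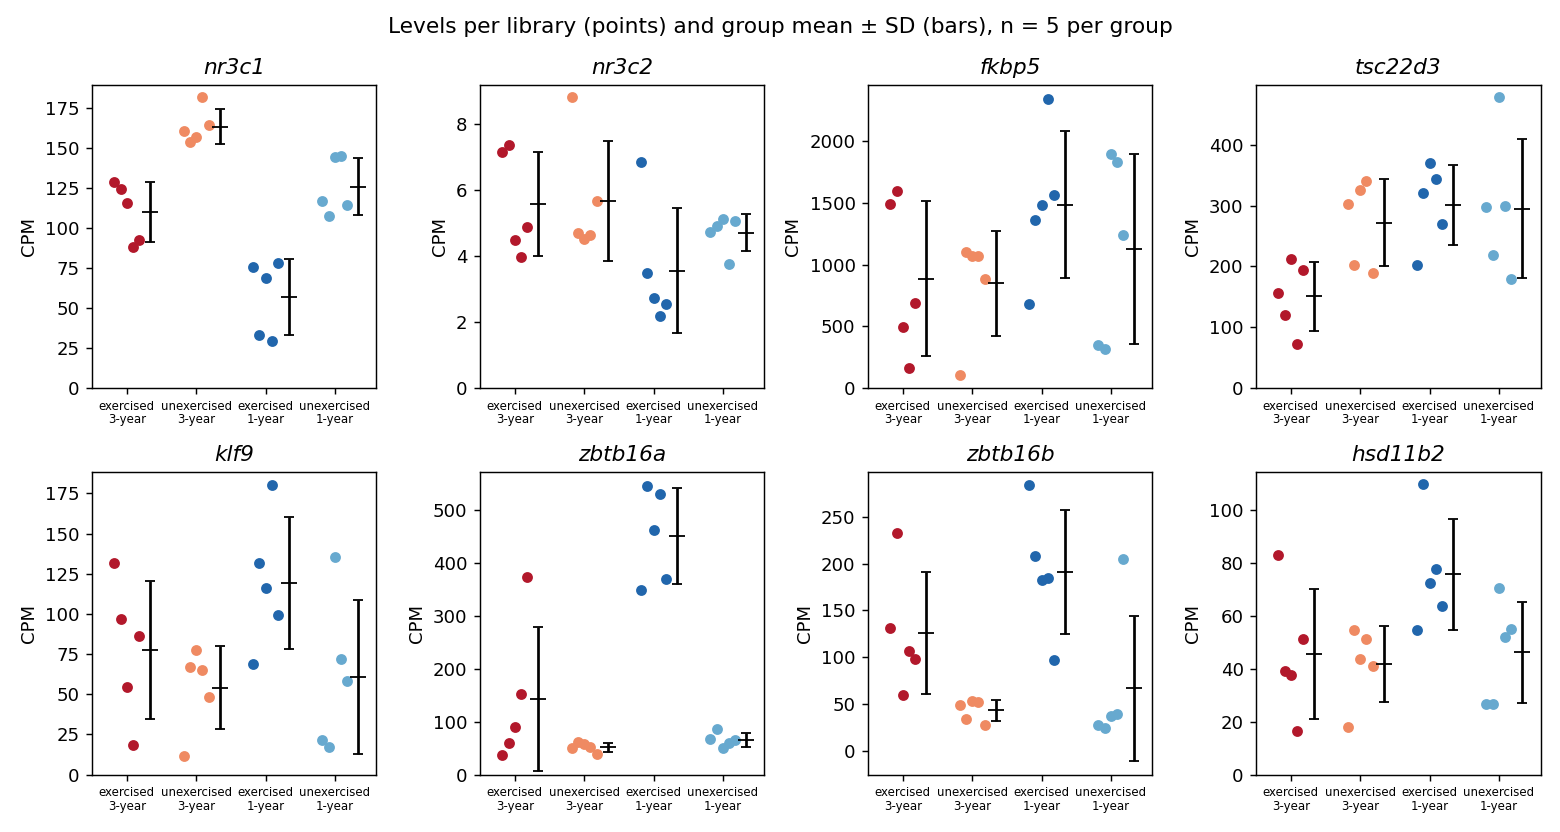
Level of each of the 8 genes in CPM (vertical axes) in exercised 3-year, unexercised 3-year, exercised 1-year and unexercised 1-year fish; points are libraries, bars the group mean and SD (n = 5). For zbtb16a the 5 exercised 1-year libraries lie between 348 and 544 CPM, against 50.5 to 86.5 CPM in unexercised 1-year fish, while fkbp5 spreads from 107 to 1103 CPM within unexercised 3-year fish alone.

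zbtb16a and zbtb16b are the zebrafish copies of ZBTB16 (PLZF), a zinc finger repressor whose gene is among the strongest glucocorticoid-induced genes in several human cell types. zbtb16a (ENSDARG00000007184) had 37.3, 59.4, 90.3, 152 and 372 CPM in exercised 3-year libraries, against 50.4, 60.7, 57.9, 52.0 and 38.8 CPM in unexercised 3-year libraries. It had 348, 544, 461, 529 and 368 CPM in exercised 1-year libraries, against 67.4, 86.5, 50.5, 59.2 and 66.2 CPM in unexercised 1-year libraries. At 1 year the groups stood far apart, whereas the exercised 3-year libraries spread from the unexercised level up to that of exercised 1-year fish. With exercise at 1 year zbtb16a was 6.82-fold higher (log2 2.77, SE 0.44, adjusted p = 0.000941). This was called with each of the 20 libraries left out in turn, and without the 3 libraries high in hepatocyte markers (log2 2.77, adjusted p = 0.00988). At 3 years the log2 fold change was 1.45 (SE 0.42, adjusted p = 0.0779), and without exercised 3-year replicate 5 it was 0.71 (adjusted p = 0.221). It was lower in exercised 3-year than in exercised 1-year fish, with a log2 fold change of -1.66, overlapping ranges, an SE of 0.42 and an adjusted p of 0.0133. That call was lost without the 3 libraries high in hepatocyte markers (log2 -1.67, adjusted p = 0.101) and with the compared groups alone (log2 -1.68, adjusted p = 0.0689). It was kept in the other 27 alternative fits, among them that with a hepatocyte score as covariate. The exercise effects at the 2 ages differed by -1.32 on the log2 scale (SE 0.58, adjusted p = 0.332), and by -2.06 (adjusted p = 0.0422) without exercised 3-year replicate 5. Between unexercised 3-year and 1-year fish the log2 fold change was -0.34 (SE 0.41, adjusted p = 0.695).

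zbtb16b (ENSDARG00000074526) had 131, 233, 59.3, 107 and 98.3 CPM in exercised 3-year libraries, against 48.9, 34.3, 52.7, 52.1 and 27.9 CPM in unexercised 3-year libraries. It had 284, 208, 182, 184 and 97.4 CPM in exercised 1-year libraries, against 27.9, 24.0, 37.0, 39.1 and 205 CPM in unexercised 1-year libraries. Exercised libraries stood above all unexercised ones at 3 years, and at 1 year they did so except for unexercised replicate 5. The log2 fold change with exercise was 1.54 at 3 years (SE 0.51, adjusted p = 0.114) and 1.52 at 1 year (SE 0.51, adjusted p = 0.0505), neither of them called. Without unexercised 1-year replicate 5 the value at 1 year was 2.58 (adjusted p = 0.00049), and without the 3 libraries high in hepatocyte markers it was 1.09 (adjusted p = 0.393). Averaged over both ages, zbtb16b was higher with exercise (log2 1.53, adjusted p = 0.00722). The exercise effects at the 2 ages differed by 0.02 on the log2 scale, with an interval from -1.48 to 1.52. The unexercised 1-year library that was high in zbtb16b was not high in zbtb16a, at 66.2 CPM. Within groups the deviations of the zbtb16 copies had a Pearson r of -0.15 over 20 libraries.

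tsc22d3 (ENSDARG00000075666) encodes GILZ, a leucine zipper protein that carries part of the anti-inflammatory action of glucocorticoids in mammals. It had 156, 120, 212, 71.4 and 193 CPM in exercised 3-year libraries and 302, 202, 325, 341 and 189 CPM in unexercised 3-year libraries. It had 202, 320, 370, 344 and 269 CPM in exercised 1-year libraries and 297, 219, 478, 300.1 and 179 CPM in unexercised 1-year libraries. The exercised 3-year libraries were the lowest as a group, overlapping each of the others. tsc22d3 was lower in exercised 3-year than in exercised 1-year fish (log2 -0.998, SE 0.29, adjusted p = 0.0237). This call was lost with a hepatocyte score as covariate (log2 -0.82, adjusted p = 0.12), without the 3 libraries high in hepatocyte markers (-1.03, adjusted p = 0.126), without exercised 1-year replicate 4 (adjusted p = 0.0508) and without exercised 3-year replicate 4 (adjusted p = 0.052). With exercise the log2 fold change was -0.85 (SE 0.29, adjusted p = 0.118) at 3 years and 0.03 (SE 0.28, adjusted p = 0.959) at 1 year. These exercise effects differed by -0.88 on the log2 scale (SE 0.40, unadjusted p = 0.0419, adjusted p = 0.35).

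**Figure D2:**
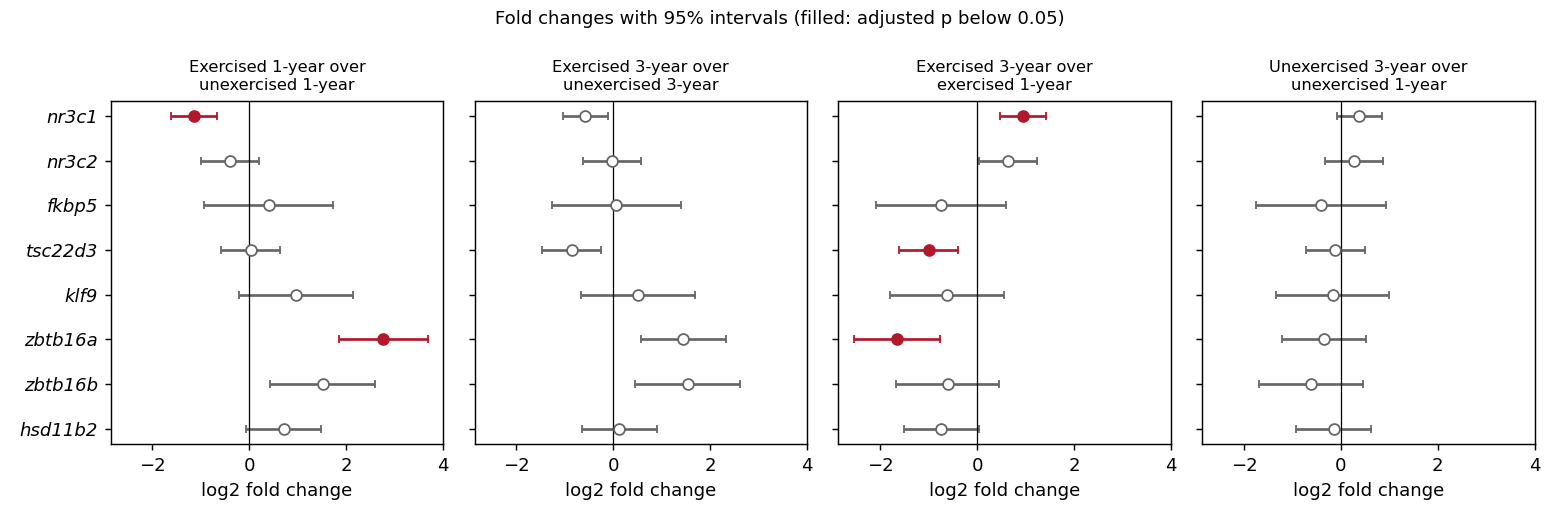
Log2 fold change (horizontal axes) of the 8 genes with its 95% interval in 4 pairwise comparisons; filled points have an adjusted p below 0.05. nr3c1 is filled on the lower side for exercise at 1 year (-1.14) and on the higher side for age in exercised fish (0.95), and no point is filled for exercise at 3 years or for age in unexercised fish.

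The count of called members was read against the share of all tested genes. With exercise at 1 year 2 of 8 members were called, zbtb16a higher and nr3c1 lower, where 15.5% of all genes were called (7.37% higher, 8.15% lower). The same 2 had ranges that did not overlap, as had 12.8% of all genes. With exercise at 3 years edgeR called 0 of 8, DESeq2 called 2 (zbtb16a and zbtb16b) and limma voom 0. With edgeR 1.32% of all genes were called (0.803% higher, 0.52% lower). At the looser threshold of an unadjusted p below 0.05, 4 members passed, and no share of all genes is given for it. Of the 20788 genes DESeq2 called 709 higher and 549 lower, and limma voom 15 higher and 18 lower. Ranges did not overlap at 3 years for nr3c1 and zbtb16b, and for 4.32% of all genes. In exercised fish 3 of 8 were called between ages, nr3c1 higher and zbtb16a and tsc22d3 lower, where 17.2% of all genes were called (9.73% higher, 7.43% lower). The count was 1, tsc22d3, with the compared groups alone and 0 without the 3 libraries high in hepatocyte markers. The age ranges of exercised fish were separate for nr3c1, and for 9.13% of all genes. In unexercised fish edgeR, DESeq2 and limma voom each called 0 of 8 between ages and none had an unadjusted p below 0.05; edgeR called 0.967% of all genes (0.495% higher, 0.471% lower). Ranges of unexercised fish were separate for nr3c1 alone among the members, and for 5.08% of all genes.

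For the gap between the exercise effects at 3 years and 1 year, edgeR, DESeq2 and limma voom each called 0 of 8. With edgeR 0.00481% of all genes, a single gene, were called. At the looser threshold of an unadjusted p below 0.05, 2 members passed, and no share of all genes is given for it. DESeq2 called 189 of the 20788 genes higher and 309 lower. Averaged over ages, exercise changed 3 of 8 where 19.7% of all genes were called: nr3c1 was lower (log2 -0.86, adjusted p = 0.00139), and zbtb16a (log2 2.11, adjusted p = 0.000323) and zbtb16b were higher. Without the 3 libraries high in hepatocyte markers 2 were called, zbtb16b being lost (log2 1.31, adjusted p = 0.0543). Averaged over exercise, age changed 2 of 8 where 20.3% of all genes were called: nr3c1 was higher (log2 0.66, adjusted p = 0.00774) and zbtb16a was lower (log2 -1.003, adjusted p = 0.0224); without those 3 libraries zbtb16a was not called (-1.01, adjusted p = 0.0781). The median log2 fold change of the members was 0.55 with exercise at 1 year and 0.10 at 3 years, against 0.01 over all genes in both. It was -0.68 between ages in exercised fish and -0.16 in unexercised fish, against 0.02 over all genes in both.

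fkbp5, klf9 and hsd11b2 differed more between fish of a group than between groups. fkbp5 (ENSDARG00000028396) encodes a co-chaperone that lowers the hormone affinity of the receptor and is itself induced by it, a negative feedback. It had 1487, 1597, 496, 160.3 and 691 CPM in exercised 3-year libraries and 107, 1103, 1067, 1070.0 and 887 CPM in unexercised 3-year libraries. It had 682, 1357, 1482, 2344 and 1563 CPM in exercised 1-year libraries and 348, 317, 1899, 1830 and 1237 CPM in unexercised 1-year libraries. The highest library exceeded the lowest 9.97-fold in exercised 3-year fish, 10.4-fold in unexercised 3-year fish, 3.44-fold in exercised 1-year fish and 5.99-fold in unexercised 1-year fish. All groups overlapped. The log2 fold change with exercise was 0.40 at 1 year (interval -0.93 to 1.73) and 0.07 at 3 years (interval -1.26 to 1.398), with adjusted p of 0.716 and 0.969. Between ages it was -0.74 in exercised fish (interval -2.08 to 0.59) and -0.41 in unexercised fish (interval -1.75 to 0.92). Each of these intervals holds no change as well as a 2-fold difference.

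klf9 (ENSDARG00000068194) encodes a Krüppel-like factor, a direct target of the receptor in mammalian keratinocytes and in zebrafish larvae. It had 132, 97.0, 54.5, 18.3 and 86.3 CPM in exercised 3-year libraries and 11.9, 67.1, 77.8, 65.3 and 48.6 CPM in unexercised 3-year libraries. It had 69.0, 132, 116, 180.2 and 99.1 CPM in exercised 1-year libraries and 21.5, 17.1, 135, 72.2 and 58.0 CPM in unexercised 1-year libraries. Exercised 1-year libraries were the highest as a group, yet each group overlapped the others. The log2 fold change with exercise was 0.97 (SE 0.56, adjusted p = 0.257) at 1 year and 0.52 (SE 0.55, adjusted p = 0.653) at 3 years.

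hsd11b2 (ENSDARG00000001975) encodes the 11-beta-hydroxysteroid dehydrogenase that converts cortisol to inactive cortisone. It had 83.0, 39.1, 37.7, 16.3 and 51.2 CPM in exercised 3-year libraries and 17.9, 54.6, 43.5, 51.0 and 41.0 CPM in unexercised 3-year libraries. It had 54.8, 110, 72.4, 77.8 and 63.5 CPM in exercised 1-year libraries and 26.9, 26.7, 70.6, 52.0 and 55.2 CPM in unexercised 1-year libraries. Again exercised 1-year libraries were the highest as a group, and they overlapped exercised 3-year and unexercised 1-year libraries. Their lowest, at 54.8 CPM, stood just above the highest unexercised 3-year library, at 54.6 CPM. The log2 fold change with exercise was 0.71 (SE 0.37, adjusted p = 0.206) at 1 year and 0.13 (SE 0.37, adjusted p = 0.886) at 3 years, and between ages in exercised fish it was -0.74 (SE 0.37, adjusted p = 0.175). The kit leaves the strand of a read unknown, and no counting settings are given. In another assembly fkbp5 overlaps srsf3a, hsd11b2 overlaps zdhhc1 and zbtb16a overlaps a long noncoding RNA. How reads from such shared stretches were counted is not known.

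The same libraries were low in all 3 genes: unexercised 1-year replicates 1 and 2, unexercised 3-year replicate 1, exercised 3-year replicate 4 and exercised 1-year replicate 1. Each of these had the lowest fkbp5 levels of its group. Deviations of log2 CPM from the group means were correlated over the 20 libraries as a description, since the libraries share depth and composition effects. fkbp5 and klf9 had a Pearson r of 0.96 and a Spearman rho of 0.93, and r was 0.93 without the 2 libraries farthest from the median. klf9 was the gene ranked 2 of 20787 by likeness to fkbp5, and fkbp5 the gene ranked 2 by likeness to klf9. klf9 and hsd11b2 had an r of 0.93 and a rho of 0.82, with 0.87 after leaving out 2 libraries. fkbp5 and hsd11b2 had an r of 0.88 and a rho of 0.71, with 0.77 after leaving out 2 libraries. Over all genes, r with fkbp5 ran from -0.48 at the 5th percentile to 0.47 at the 95th, with a median of -0.02.

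The other members did not vary with these 3 to that degree. tsc22d3 had an r of 0.30 with fkbp5, 0.45 with klf9 and 0.42 with hsd11b2. The receptor nr3c1 had an r of 0.13 with fkbp5, 0.08 with klf9 and 0.04 with hsd11b2. nr3c1 and zbtb16a had an r of -0.50 and a rho of -0.77. Over all genes the 5th percentile of r was -0.54 with nr3c1 and -0.46 with zbtb16a. Among measures of the libraries, r with fkbp5 was 0.64 for the summed skin markers, 0.46 for erythrocyte, 0.32 for fast skeletal muscle, 0.14 for interrenal, -0.14 for T cell, -0.16 for hepatocyte, -0.30 for macrophage and -0.51 for neutrophil markers, and -0.11 for the total count. The part of these measures in the likeness was not tested.

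**Figure D3:**
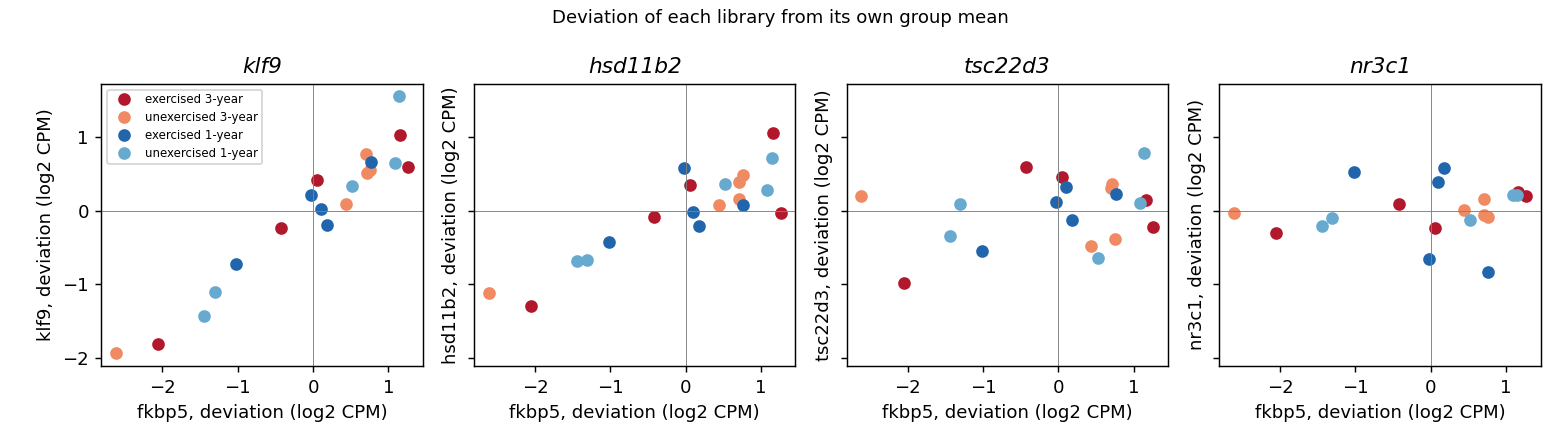
Deviation of each library's log2 CPM from its group mean for klf9, hsd11b2, tsc22d3 and nr3c1 (vertical axes) against that of fkbp5 (horizontal axes), 20 libraries coloured by group. Points follow a line for klf9 (r = 0.96) and hsd11b2 (r = 0.88) and scatter for tsc22d3 (r = 0.30) and nr3c1 (r = 0.13).

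Of 47 other known glucocorticoid targets tested, 11 had an r with fkbp5 above the 95th percentile of all genes and 3 below the 5th. Their median r was 0.15, against -0.02 over all genes. The 5 highest, picked by that value, were led by GLUL (ENSDARG00000099776), glutamine synthetase, with an r of 0.88. Next came IRS2 (ENSDARG00000075282), an insulin receptor substrate, with 0.85, and foxo3b, a forkhead factor, with 0.84. PER1 (ENSDARG00000056885), a clock repressor, had 0.83, and PDK2 (ENSDARG00000059054), a kinase that restrains pyruvate oxidation, had 0.81. Their paralogs had lower values: 0.62 for GLUL (ENSDARG00000100003), 0.20 for IRS2 (ENSDARG00000037099), -0.25 for foxo3a, 0.17 for PER1 (ENSDARG00000012499) and 0.29 for PDK2 (ENSDARG00000020876). Of 24 inflammatory genes that glucocorticoids repress in mammals, 0 were above the 95th percentile and 8 were below the 5th, with a median r of -0.40. The lowest were cxcl8b.1, a neutrophil-attracting chemokine, at -0.89, its paralog cxcl8a at -0.81 and the cytokine il11a at -0.80. For the genes of these lists r is given over all 20 libraries alone. How far single libraries carry these values was not tested. The summed neutrophil markers, MMP9 and lyz, had an r of -0.51. MMP9 is also on the inflammatory list, at -0.51, so this sum is not a separate measure. The part of neutrophils was not tested. No chaperone, coregulator or stress axis gene was past either percentile. Of 9 genes of corticosteroid synthesis and inactivation 2 were above the 95th, SRD5A2 (ENSDARG00000043587) at 0.77 and hsd20b2 at 0.58, and the median r was 0.22.

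Among 19 chaperones and co-chaperones of the receptor 1 was called lower with exercise at 1 year, where 8.15% of all genes were. It was FKBP4, the co-chaperone that couples the receptor to transport into the nucleus (log2 -0.49, SE 0.13, adjusted p = 0.0176). Its value was -0.66 (adjusted p = 0.0476) without the 3 libraries high in hepatocyte markers and -0.43 (adjusted p = 0.0593) without exercised 1-year replicate 4. At 3 years edgeR called 0, DESeq2 1 and limma voom 0, and 4 had an unadjusted p below 0.05. Of all 20788 genes DESeq2 called 709 higher and 549 lower there, limma voom 15 higher and 18 lower, and edgeR 1.32%. Between ages in exercised fish 1 of 19 was called, where 17.2% of all genes were. It was hsp90aa1.1, an inducible HSP90, which was lower (log2 -1.82, SE 0.36, adjusted p = 0.00418). Without the 3 libraries high in hepatocyte markers the count was 0. In unexercised fish edgeR called 0, DESeq2 1 and limma voom 1, and 6 had an unadjusted p below 0.05. Of all 20788 genes DESeq2 called 416 higher and 426 lower there, limma voom 426 higher and 503 lower, and edgeR 0.967%. The median of the chaperones lay between -0.19 and 0.17 in all 4 comparisons. With exercise averaged over ages 4 of 19 were higher and 1 was lower, 26.3% against 19.7% of all genes, and with age averaged over exercise 4 of 19 were lower, 21.1% against 20.3% of all genes.

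Among 21 receptor coregulators, a list that includes acetyltransferases and corepressors, 5 were lower and 1 was higher with exercise at 1 year. Over all genes 8.15% were lower and 7.37% higher. EP300 (ENSDARG00000061108) was lower (log2 -0.83, SE 0.12, adjusted p = 0.000637), as were CREBBP (-0.94, SE 0.16, adjusted p = 0.00116) and PIAS1 (ENSDARG00000036094; -1.10, SE 0.20, adjusted p = 0.0021), and SMARCD1 was higher (0.48, SE 0.11, adjusted p = 0.00569). The count of 6 was 4 without the 3 libraries high in hepatocyte markers. The second EP300 gene (ENSDARG00000100666) had a log2 fold change of 0.24 (adjusted p = 0.192). The list's median was -0.01, against 0.01 over all genes. At 3 years NCOA3 (log2 -0.55, SE 0.12, adjusted p = 0.0381) and PIAS1 (ENSDARG00000036094; -0.82, SE 0.20, adjusted p = 0.0499) were lower with exercise. Over all genes 0.52% were lower there. The coregulator count at 3 years was 0 with limma voom and between 0 and 2 when any 1 of the 20 libraries was left out. Between ages in exercised fish 5 of 21 were higher, with EP300 (ENSDARG00000061108) at 0.61 (adjusted p = 0.00328), NRIP1 at 0.86 (adjusted p = 0.00894), CREBBP at 0.66 (adjusted p = 0.00957) and PIAS1 (ENSDARG00000036094) at 0.75 (adjusted p = 0.018). Of all genes 9.73% were higher there. The count of 5 coregulators was 1 with the compared groups alone and 1 without the 3 libraries high in hepatocyte markers. In unexercised fish edgeR, DESeq2 and limma voom each called 0, and 2 had an unadjusted p below 0.05. Of all genes edgeR called 0.967% there.

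Of the 47 other targets, 12 were higher and 4 lower with exercise at 1 year. Over all genes 7.37% were higher and 8.15% lower. The median log2 fold change of the targets was 0.43, against 0.01 over all genes. The 4 of lowest p were foxo3a, a forkhead factor, lower by -1.26 (SE 0.17, adjusted p = 0.000577), NR1D1, the clock repressor REV-ERB-alpha, lower by -2.36 (SE 0.37, adjusted p = 0.000941), FOXO1 (ENSDARG00000099555), a forkhead factor, higher by 0.93 (SE 0.18, adjusted p = 0.00291), and AGXT (ENSDARG00000052099), a peroxisomal aminotransferase of liver, higher by 3.19 (SE 0.65, adjusted p = 0.00357). Hepatocyte markers moved the same way: 10 of 10 tested were higher with exercise at 1 year, with a median of 3.19. Without the 3 libraries high in those markers 4 of 47 targets were called, and 7 with a hepatocyte score as covariate. The share of all genes in these fits is not given. A drop of the targets cannot be told apart from a drop over all genes. Leaving out single libraries gave counts from 8 to 19, with 8 or 9 without unexercised 1-year replicates 1, 2 or 4 or exercised 1-year replicate 2. At 3 years 1 was higher, FOXO1 (ENSDARG00000061549; log2 1.78, SE 0.42, adjusted p = 0.0432), and 2 were lower, NR1D1 (-2.40, SE 0.38, adjusted p = 0.0118) and PER1 (ENSDARG00000012499; -1.29, SE 0.17, adjusted p = 0.00399). Over all genes 1.32% were called there. The count of 3 targets was 1 with limma voom, and 5 with DESeq2 and without exercised 3-year replicate 3.

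Between ages 2 of 47 targets were called in unexercised fish, both lower at 3 years: NR1D1 (log2 -2.58, SE 0.37, adjusted p = 0.00297) and PER1 (ENSDARG00000012499; -1.29, SE 0.17, adjusted p = 0.00115). The second PER1 gene (ENSDARG00000056885) stood at -2.03 on the log2 scale there (SE 0.53, adjusted p = 0.0700) and was not called. Of all genes 0.471% were called lower in that comparison. PER1 (ENSDARG00000012499) had 17.4, 18.2, 14.6, 19.5 and 10.6 CPM in exercised 3-year libraries and 33.1, 44.3, 31.8, 48.0 and 39.4 CPM in unexercised 3-year libraries. It had 72.7, 47.3, 54.9, 48.2 and 54.8 CPM in exercised 1-year libraries and 78.2, 91.9, 119, 101 and 90.3 CPM in unexercised 1-year libraries. Within each age every exercised library was below every unexercised one for this PER1 gene. The second PER1 gene (ENSDARG00000056885) overlapped at both ages. At 3 years it had 1.63 to 9.16 CPM with exercise and 3.61 to 11.2 CPM without. At 1 year it had 18.6 to 23.5 CPM with exercise and 8.48 to 49.2 CPM without. Between ages in exercised fish 9.73% of all genes were higher and 7.43% lower at 3 years. Of the 47 targets 2 were higher and 11 lower there, with a median of -0.38, against 0.02 over all genes. These included PER1 (ENSDARG00000012499; -1.79, SE 0.17, adjusted p = 1.93e-05), NR1D1 (-2.62, SE 0.38, adjusted p = 0.000803) and GLUL (ENSDARG00000100003; -1.81, SE 0.40, adjusted p = 0.00725) among the lower, and SOCS3, a cytokine signalling inhibitor, among the higher (1.23, SE 0.28, adjusted p = 0.00857). The second GLUL gene (ENSDARG00000099776) overlapped there, with 38.9 to 249 CPM in exercised 3-year and 89.4 to 186 CPM in exercised 1-year libraries. Here too 10 of 10 hepatocyte markers were called, all lower at 3 years, and without the 3 libraries high in them 2 of 47 targets were called. Of the 8 skin markers 3 were called, all lower at 3 years, and their part was not tested. For the gap between the exercise effects at 3 years and 1 year edgeR called 0 of 47, DESeq2 3 and limma voom 0. Of all 20788 genes edgeR called 0.00481% there, and DESeq2 189 higher and 309 lower. Of the targets 10 had an unadjusted p below 0.05, a threshold for which no share of all genes is given.

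**Figure D4:**
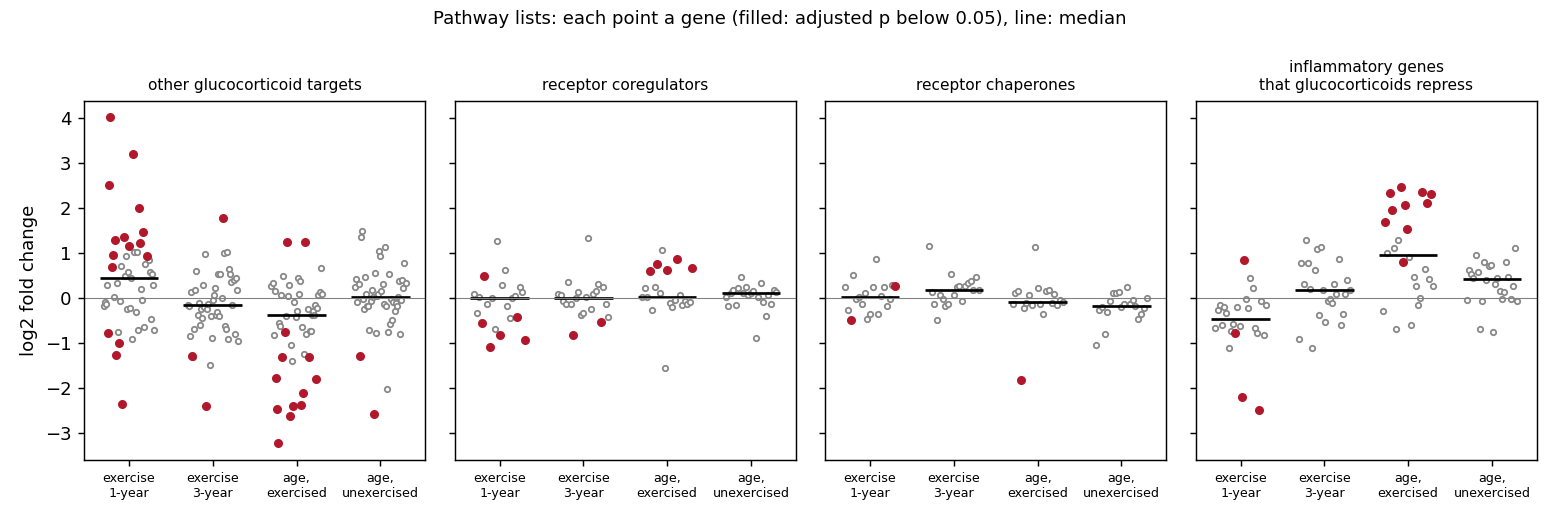
Log2 fold change (vertical axis) of each tested gene of 4 lists, other targets (47 genes), coregulators (21), chaperones (19) and repressed inflammatory genes (24), in 4 pairwise comparisons; filled points have an adjusted p below 0.05 and lines are medians. The inflammatory list has a median of 0.94 between ages in exercised fish, with 10 filled points, and -0.46 with exercise at 1 year, with 4 filled points.

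Inflammatory genes that glucocorticoids repress in mammals were higher in exercised 3-year than in exercised 1-year fish: 10 of 24 were called, all higher. Their median log2 fold change was 0.94, against 0.02 over all genes. Of all genes 9.73% were higher and 7.43% lower. MMP9, a matrix metalloproteinase, averaged 225 ± 177 CPM in exercised 3-year fish and 54.4 ± 12.2 CPM in exercised 1-year fish (log2 2.05, SE 0.36, adjusted p = 0.00201). The cytokine il1b averaged 12.3 ± 7.90 CPM in exercised 3-year fish and 2.43 ± 0.73 CPM in exercised 1-year fish (log2 2.35, SE 0.44, adjusted p = 0.00317). The chemokine cxcl8a averaged 23.3 ± 17.0 CPM in exercised 3-year fish and 4.72 ± 2.25 CPM in exercised 1-year fish (log2 2.30, SE 0.49, adjusted p = 0.00594). Of the 2 neutrophil markers MMP9, which is on both lists, was called, and lyz had a log2 fold change of -0.10 (adjusted p = 0.932). Of the 3 macrophage markers marco was higher (1.55, SE 0.35, adjusted p = 0.00798), while cd68 had 0.44 (adjusted p = 0.254) and csf1ra -0.05 (adjusted p = 0.919). The neutrophil markers summed to 115 to 553 CPM in exercised 3-year libraries and 54.8 to 102 CPM in exercised 1-year libraries, and the macrophage markers to 207 to 684 CPM in exercised 3-year libraries and 220.2 to 329 CPM in exercised 1-year libraries. T cell markers, 1 of 4 called higher, summed to 29.7 to 115 CPM in exercised 3-year and 28.8 to 42.3 CPM in exercised 1-year libraries. Exercised 3-year replicate 4 had the highest sum for each of these cell types. The next highest of its group were 265 CPM for neutrophil, 377 CPM for macrophage and 54.4 CPM for T cell markers. Of the 8 skin markers 3 were lower in exercised 3-year fish and 0 higher. Their part in the result was not tested. The count was 0 without the 3 libraries high in hepatocyte markers, 6 with the compared groups alone, and 6 without exercised 1-year replicate 4 or exercised 3-year replicate 4.

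With exercise at 1 year 8.15% of all genes were lower and 7.37% higher. Of the 24 inflammatory genes 3 were lower and 1 was higher, with a median of -0.46. The lower genes were nfkb2, an NF-kappa-B subunit (log2 -0.78, SE 0.17, adjusted p = 0.00573), irf1a, an interferon regulatory factor (-2.20, SE 0.58, adjusted p = 0.016), and cxcl8b.1 (-2.49, SE 0.72, adjusted p = 0.0251); the higher gene was JUN, a subunit of AP-1 (0.83, SE 0.23, adjusted p = 0.0194). The count was 0 without the 3 libraries high in hepatocyte markers and 2 without exercised 1-year replicate 4. At 3 years edgeR called 0, DESeq2 1 and limma voom 0, and 4 had an unadjusted p below 0.05. The median was 0.16. Of all 20788 genes edgeR called 1.32% there, and DESeq2 709 higher and 549 lower. Between ages in unexercised fish all 3 tools called 0, and 3 had an unadjusted p below 0.05. The median was 0.42, and edgeR called 0.967% of all genes. For the gap between the exercise effects all 3 tools called 0, where edgeR called 0.00481% of all genes. Of the inflammatory genes 5 had an unadjusted p below 0.05, a threshold for which no share of all genes is given.

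Of the genes that make or inactivate corticosteroids, 17 were found and 9 passed the filter. hsd20b2, an enzyme of cortisone breakdown in zebrafish, averaged 10.9 ± 4.83 CPM in exercised 1-year fish and 2.54 ± 1.38 CPM in unexercised 1-year fish (log2 2.10, SE 0.41, adjusted p = 0.0028), the single call of the list in that comparison. Of all genes 15.5% were called there. From the list DESeq2 called 3 and limma voom 2. Of all 20788 genes DESeq2 called 1953 higher and 2117 lower there, and limma voom 2031 higher and 2072 lower. The test without the 3 libraries high in hepatocyte markers called 1, and that with single libraries left out 1 to 3. Between ages in exercised fish hsd20b2 (log2 -1.37, SE 0.40, adjusted p = 0.025) and SRD5A2 (ENSDARG00000043587), a steroid 5-alpha-reductase (-1.03, SE 0.28, adjusted p = 0.0203), were lower at 3 years. Of all genes 7.43% were lower there. The list's count was 0 with the compared groups alone and without the 3 libraries high in hepatocyte markers. It was also 0 without exercised 1-year replicate 2 or 4 or exercised 3-year replicate 3 or 4. With exercise at 3 years and between ages in unexercised fish edgeR, DESeq2 and limma voom each called 0, and 2 and 1 genes had an unadjusted p below 0.05. The signals of the stress axis, such as corticotropin-releasing hormone and its receptors, gave 6 genes above the filter of 14 found. Of these edgeR, DESeq2 and limma voom called 0 in each of the 4 pairwise comparisons, with 0 at an unadjusted p below 0.05. Over all genes edgeR called 15.5% with exercise at 1 year and 1.32% at 3 years. Between ages it called 17.2% in exercised and 0.967% in unexercised fish.

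By likeness of log2 CPM over the 20 libraries, differences between groups included, and with the 8 members themselves left out of the ranking, the genes nearest to nr3c1 were TBC1D5, tmem131l and zgc:92140, each with an r of 0.97. Those nearest to zbtb16a were ZBTB7C (0.96), SHD (0.95) and MAP7D1 (0.94), and those nearest to zbtb16b were si:ch211-199g17.9 (0.90), OSBPL3 (0.90) and PPARD (0.89). For tsc22d3 they were ARRDC2 (0.92), MAF (0.89) and cipca (0.86), and for nr3c2 GLI2 (0.87), map3k22 (0.85) and dab2ipb (0.81). klf9 was nearest to si:dkey-201c13.2 (0.99), snrkb (0.91) and GLUL (0.90), and hsd11b2 to PDK2 (0.93), si:ch211-171h4.3 (0.91) and si:dkey-201c13.2 (0.90). fkbp5 was nearest to tuft1a (0.97), si:dkey-201c13.2 (0.92) and SRSF3 (ENSDARG00000025397, 0.90), a symbol that the name table gives to 2 genes. In another assembly fkbp5 overlaps srsf3a, and whether this SRSF3 gene is srsf3a was not settled. The part of shared reads in its r was not tested. On the same scale fkbp5 and klf9, and klf9 and hsd11b2, had an r of 0.92.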

How the data were processed

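RNA from skin was sequenced in 20 libraries, 5 per group. Per the labels' protocols the kit was TruSeq RNA v2 on total RNA; it leaves the strand of a read unknown. The submitters' processing notes list STAR 2.4.1d, featureCounts 1.4.6-p4, bcl2fastq 1.8.4 and the build GRCz10, with no settings or annotation in the sources used here. The deposited values used are whole-number counts per gene, which were not normalised as far as the values show. The deposited RPKM were scaled with the library totals applied in turn down the gene list: the implied gene length had a coefficient of variation of 22.6% with each library's own total and 0.00298% with totals in turn. They served only to recover gene lengths.

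All libraries entered 1 edgeR 4.0.16 model of 4 group means (R 4.3.3, TMM scaling, filterByExpr, robust quasi-likelihood F-tests, 16 residual degrees of freedom, prior count of 2 for log2 CPM, biological coefficient of variation 34.7%). Benjamini-Hochberg adjustment ran over all 20788 genes tested; intervals are the log2 fold change ± a t quantile times the SE, at 95%. Replicate numbers follow sample order and pair nothing. Every member is named, and of each list up to 4 called genes by lowest p per comparison, or the gene of lowest p. Symbols came from a name table that covers 26269 of 32105 genes; a symbol in capitals may be shared by several genes. Overlaps were looked up in a RefSeq table of another assembly, used for neighbours alone. Alternatives were RLE scaling, plain totals, other filters, DESeq2 1.42.0, limma 3.58.1 voom, the compared groups alone, hepatocyte and muscle scores as covariates, and each library left out. Leaving out exercised 1-year replicates 1, 2 and 3 together, and likeness under other scalings, were added after the data were seen. The fit was checked on simulated counts. The members and the lists were chosen with earlier results of these data known. No sequence or coordinate was used. One result of the chaperone list is not reported here.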

Additional observations from a re-analysis of the deposited data

Results flagged for a closer look

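In 5 groups of 5 libraries 1 library of a member stood apart, its gap to the nearest other library exceeding 0.71 of the group's range on the log2 scale. Unexercised 3-year replicate 1 was low in 3 genes, with 107 CPM of fkbp5, 11.9 CPM of klf9 and 17.9 CPM of hsd11b2, against at least 887, 48.6 and 41.0 CPM in the other 4 libraries of its group. Unexercised 1-year replicate 5 had 205 CPM of zbtb16b, against 24.0 to 39.1 CPM in the others. Unexercised 1-year replicate 4 had 3.75 CPM of nr3c2, against 4.71 to 5.11 CPM in the others. Interrenal markers, the genes of the steroid-producing tissue, summed to 9.75 CPM in exercised 1-year replicate 2, of which star, the cholesterol carrier of steroid synthesis, gave 8.11 CPM (327 counts). The 64 groups examined in this way would give some such libraries by chance, about 5% of groups.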

How the results depend on the processing

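Of 200 recomputed counts of called members 192 stayed within 1.5 times the reported one, and no called fold change of a member turned its sign. With exercise at 3 years the count of 0 became 2 with DESeq2 and ranged from 0 to 1 as single libraries were left out. It was 1 without unexercised 1-year replicate 5 (zbtb16b) and without exercised 3-year replicate 1 or 2 (zbtb16a). Between ages in exercised fish the count of 3 became 1 with the compared groups alone and 0 without the 3 libraries high in hepatocyte markers, which leaves 2 exercised 1-year libraries. For the gap between the exercise effects at 3 years and 1 year the count of 0 ranged up to 1, without exercised 3-year replicate 5. For age averaged over exercise the count of 2 ranged up to 4, without exercised 1-year replicate 1. Among 1600 member fold changes 24 gained and 10 lost the call. zbtb16b with exercise at 1 year gained it in 8 alternatives, among them limma voom (log2 2.16, adjusted p = 0.00230). Of the fold changes, 40 turned their sign, all of them uncalled before and after. At 3 years with exercise, nr3c2 turned with limma voom (0.10), fkbp5 with the muscle (-0.088) and hepatocyte (-0.10) scores, and hsd11b2 with the muscle score (-0.47); single libraries left out gave -0.15 to 0.19 for nr3c2, -0.26 to 0.34 for fkbp5 and -0.21 to 0.34 for hsd11b2. For tsc22d3 with exercise at 1 year the muscle and hepatocyte scores gave -0.0046 and -0.19, and single libraries -0.11 to 0.27. Between ages in unexercised fish limma voom gave 0.15 for fkbp5, 0.44 for klf9, 0.0048 for zbtb16b and 0.11 for hsd11b2, and the muscle score 0.040 for tsc22d3, 0.10 for klf9 and 0.19 for hsd11b2; single libraries gave -0.26 to 0.13 for tsc22d3, -0.41 to 0.36 for klf9, -0.84 to 0.43 for zbtb16b and -0.30 to 0.049 for hsd11b2. For zbtb16b the gap between the exercise effects was -0.64 with limma voom, -0.021 with the muscle score and -1.03 to 0.23 with single libraries left out. The cause was not tested. No paired analysis was possible because replicate numbers follow sample order. With between 66 and 460 counts per library, nr3c2 is the member least precisely counted.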
